A study of Drosophila melanogaster with 3 samples.

Results

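The genes kni, knrl, ara, caup, mirr and bs of Drosophila melanogaster pattern the veins of the wing and have been described as targets of the spalt proteins. These 6 of the 18164 annotated genes were listed by name as known vein genes, by a rule that holds no measured value though earlier results of these data were known, and every deposited peak summit in and around them was collected. The spalt genes salm and salr encode zinc finger transcription factors that act downstream of the morphogen Dpp in the wing primordium. At the edge of the spalt domain, kni and its neighbour knrl, which encode related zinc finger proteins of the nuclear receptor type, specify the second longitudinal vein. The iroquois complex genes ara and caup encode homeodomain proteins that act in the primordia of the third and the fifth longitudinal veins, mirr is the third homeodomain gene of the complex, and bs (blistered), the fly homolog of serum response factor, promotes the intervein fate.

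The deposit holds ChIP-seq of whole prepupae (24 hours, males and females pooled) from a transgenic line with a C-terminal GFP fusion to salr, as 3 biological replicate libraries in a single group. Chromatin was sheared by sonication, and the separate control that the labels name was not analysed here. The free text of each library calls it input, which contradicts its assay title and its antibody field. The libraries were taken as immunoprecipitates by assay title. No group is set against another, so the member loci are compared with the rest of the genome and with other gene groups. The chromatin is that of whole animals, so wing tissue cannot be told apart from the other tissues.

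Each library has a list of 30000 peaks, and so has the pool of all libraries. A further deposited list holds 3839 peaks kept by irreproducible discovery rate (IDR), a measure of agreement between replicates, and these are the 3839 strongest of the pooled list. The length of the other lists therefore reads as a limit and includes weak peaks. Relative signal is the deposited signal of a peak divided by the median signal of its list. No read counts accompany the peaks, and sequencing depth is therefore unknown. The weakest IDR peak of the genome had a relative signal of 2.487 in the pooled list, as had the strongest pooled peak outside the IDR set. All coordinates are on the dm6 assembly.

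The kni-knrl locus, 118238 bp of 3L from 20587141 to 20705378, runs from 10 kb beyond knrl (FBgn0001323, 20597141 to 20620659, minus strand) to 10 kb beyond kni (FBgn0001320, 20692330 to 20695378, minus strand). The ara-caup-mirr locus, 149578 bp of 3L from 12570672 to 12720249, holds ara (FBgn0015904, 12580672 to 12596018), caup (FBgn0015919, 12609631 to 12621798) and mirr (FBgn0014343, 12693639 to 12710249), all on the plus strand. The third locus is bs with the same flanks.

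The summits that carry the strongest signal in the 3L loci are shown by their sequence, within 50 bp of the summit, on the plus strand, from the RefSeq Release 6 genome. Capitals mark words that were searched for, which are given with the sequence results. The windows are those of the 5 strongest IDR summits on 3L and, for contrast, of the strongest pooled summit outside the IDR set at each 3L locus. The window upstream of sowah is cut to 87 bases where the annotated exon begins.
knrl intron, chr3L:20600834-20600934: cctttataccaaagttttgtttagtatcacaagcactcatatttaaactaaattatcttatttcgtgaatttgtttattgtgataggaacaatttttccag
between knrl and kni near CG13251, chr3L:20635738-20635838: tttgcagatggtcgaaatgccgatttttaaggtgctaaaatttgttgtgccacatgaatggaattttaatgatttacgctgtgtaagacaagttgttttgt
between knrl and kni near lncRNA:CR44681, chr3L:20632450-20632550: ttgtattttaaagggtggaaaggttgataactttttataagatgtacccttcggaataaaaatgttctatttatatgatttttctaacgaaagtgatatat
upstream of sowah and ara, chr3L:12572543-12572629: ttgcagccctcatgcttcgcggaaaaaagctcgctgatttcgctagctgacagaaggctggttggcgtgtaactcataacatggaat
near lncRNA:CR43431, between caup and mirr, chr3L:12653263-12653363: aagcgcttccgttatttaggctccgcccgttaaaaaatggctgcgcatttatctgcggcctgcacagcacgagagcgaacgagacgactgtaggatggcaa
downstream of kni, outside the IDR set, chr3L:20688276-20688376: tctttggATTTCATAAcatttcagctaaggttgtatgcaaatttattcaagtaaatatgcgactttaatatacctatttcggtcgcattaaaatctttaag
ara promoter, outside the IDR set, chr3L:12580538-12580638: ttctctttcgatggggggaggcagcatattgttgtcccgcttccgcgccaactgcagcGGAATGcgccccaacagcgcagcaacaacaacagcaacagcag

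The 3 loci together held 8 IDR summits, with 4 at kni-knrl, 3 at ara-caup-mirr and 1 at bs. They held 111 pooled summits, with 35, 62 and 14 in the same order of loci. Library 1 listed 90 summits in the loci, library 2 listed 92 and library 3 listed 120. Of the 6 genes, 1 (16.7%) had an IDR summit at its promoter, beside 13.5% of all genes. That gene was mirr. A promoter was taken as 1000 bp around an annotated transcription start site (TSS). Within the gene body and 10 kb on each side, ara, bs, knrl and mirr had an IDR summit, 4 of 6, beside 48.6% of all genes and 50.5% of protein-coding genes. Neither kni nor caup had one in that window. No test was attached to these counts over 6 genes, and they are not read as a difference from the background.

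**Figure D1:**
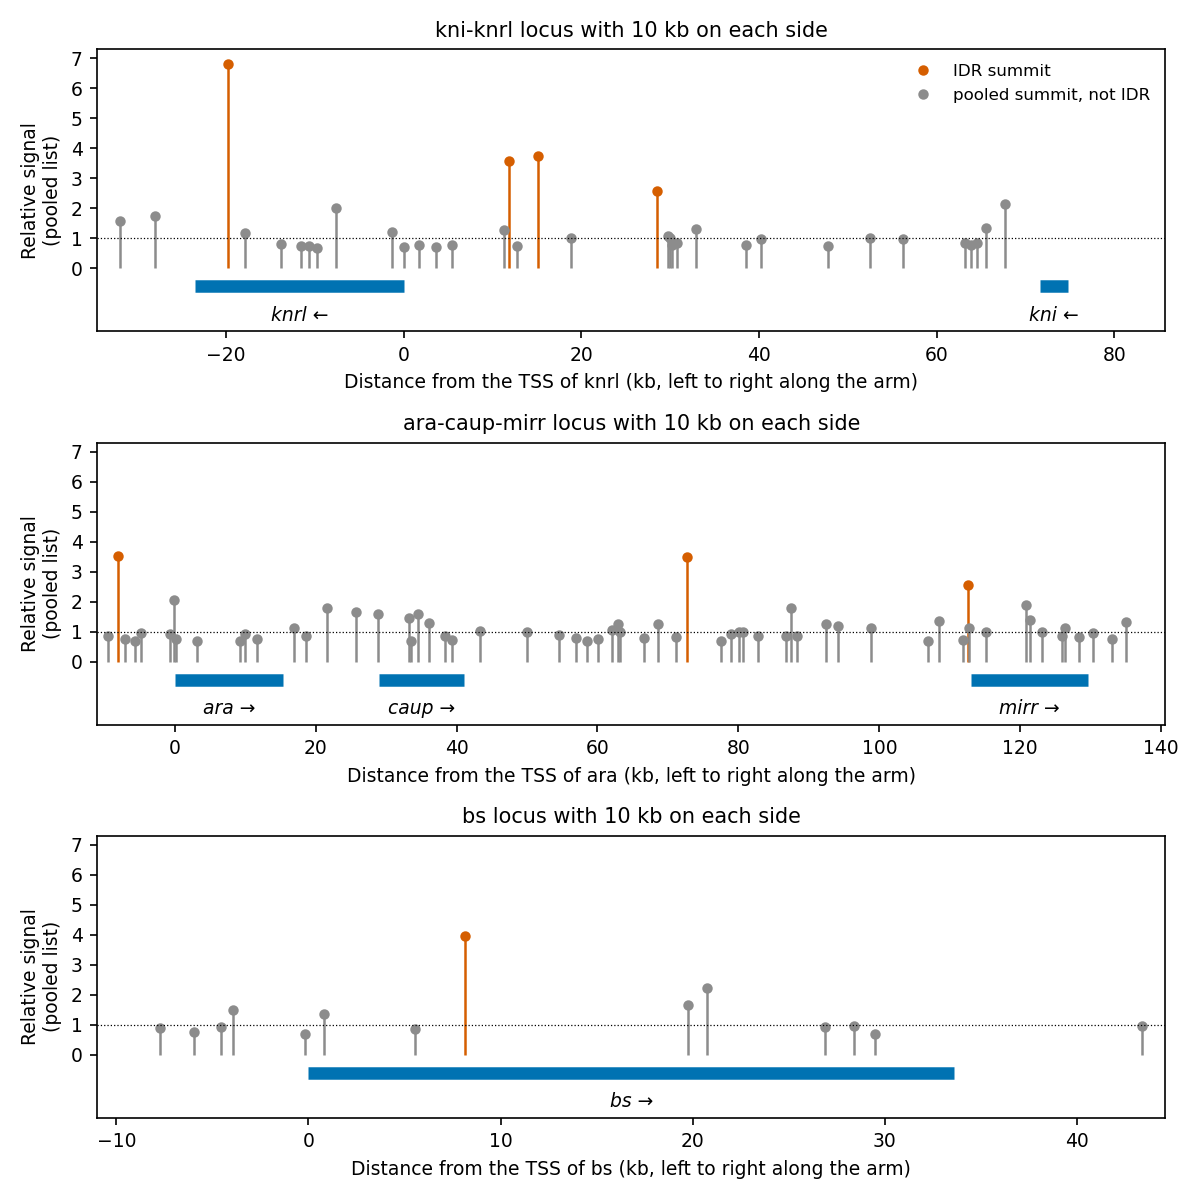
Pooled summits of the 3 loci by distance from the TSS of the gene at the left end (x axis, kb) and relative signal in the pooled list (y axis); bars below the stems are the member genes, arrows give their strand and the dotted line is the median of the whole list. IDR summits, in orange, reach 6.81 in knrl, and the stretch that holds kni has no pooled summit.

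The strongest summit of the loci lay in an intron of knrl, 19775 bp downstream of its TSS, in an IDR peak from 20600791 to 20600902. Its relative signal was 5.76 in library 1, 4.999 in library 2 and 5.88 in library 3, a mean of 5.54 ± 0.477 (SD, n = 3). It ranked 867, 790 and 1097 in these lists and 877 in the pooled list. All 3 libraries placed it among their 3839 strongest peaks, with a spread that was small beside the value itself.

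The other 3 IDR summits of this locus lay between knrl and kni, all nearer to knrl. The peak from 20632328 to 20632671, 11841 bp upstream of the knrl TSS and 520 bp upstream of lncRNA:CR44681, had relative signals of 3.04, 2.12 and 3.69 in libraries 1 to 3 (mean 2.95 ± 0.787, SD, n = 3). The peak from 20635746 to 20635831, 15129 bp upstream of knrl and 1411 bp upstream of CG13251, had 2.31, 2.10 and 3.97 (mean 2.79 ± 1.03). At both, library 2 gave the lowest value and library 3 the highest. The peak from 20648999 to 20649342, 28512 bp upstream of knrl and 3735 bp upstream of lncRNA:CR44685, had 1.88, 1.86 and 2.04 (mean 1.93 ± 0.0970). It was the weakest of the 4, and its values varied least between libraries.

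The gene kni itself lay in the longest stretch of its locus without a pooled summit, 17052 bp from 20688326 to the end of the locus at 20705378. No pooled or IDR summit fell in its gene body. Library 1 listed none within 1000 bp of its start sites, library 2 listed a summit of relative signal 0.823 at 36 bp upstream, and library 3 listed one of 1.21 at 43 bp upstream. The library 2 summit lay below the median of its list and the library 3 summit above it. The nearest pooled summit, 6230 bp downstream of a kni TSS, was the strongest of the locus outside the IDR set. It had a pooled relative signal of 2.15 (rank 4734), with 1.95 in library 1, 2.10 in library 3 and no matched summit in library 2. Library 2 listed a weak summit 190 bp away (0.721, rank 24852), in an interval that overlaps the pooled peak. The nearest IDR summit was 42091 bp upstream of kni, beyond the 10 kb of flank. At the knrl TSS, the pooled list had a weak summit of 0.696 and no library listed a summit within 1000 bp.

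In the iroquois complex, the IDR summits lay 8093 bp upstream of ara, between caup and mirr, and just upstream of mirr. The summit upstream of ara, in a peak from 12572407 to 12572750, was 37 bp upstream of the TSS of the neighbouring gene sowah. Its relative signal was 2.66 in library 1, 1.76 in library 2 and 4.13 in library 3 (mean 2.85 ± 1.19, SD, n = 3). Library 3 gave the highest value there and library 2 the lowest, below its 3839 strongest peaks. The summit between caup and mirr, in a peak from 12653141 to 12653484, was 223 bp upstream of lncRNA:CR43431 and 40326 bp upstream of mirr. It had 3.40 in library 1, 3.52 in library 2 and 1.01 in library 3 (mean 2.64 ± 1.42, SD, n = 3). In library 3 it ranked 14768, close to the middle of the list, while libraries 1 and 2 had it among their strongest. Library 3 also listed a stronger summit 201 bp away, 22 bp upstream of lncRNA:CR43431 (1.24, rank 9797), in an interval that overlaps the IDR peak.

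The IDR summit of mirr, 438 bp upstream of its TSS in a peak from 12693029 to 12693372, was the weakest of the 8 in the pooled list (2.54, rank 3740). Library 2 had 1.86 there (rank 5134), library 3 had 0.769 (rank 25319) and library 1 had no summit within 100 bp. Library 1 instead listed a summit 151 bp away, 287 bp upstream of the TSS, with a relative signal of 2.54 and rank 2988. The intervals of these peaks overlapped by 173 bp. The pooled list holds a separate summit 204 bp upstream of the TSS (1.13, rank 12038), which the library 1 summit matches at 83 bp. Library 2 listed both positions, with 0.871 at the nearer one (rank 18709), and library 3 listed only the IDR position, near the bottom of its list.

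**Figure D2:**
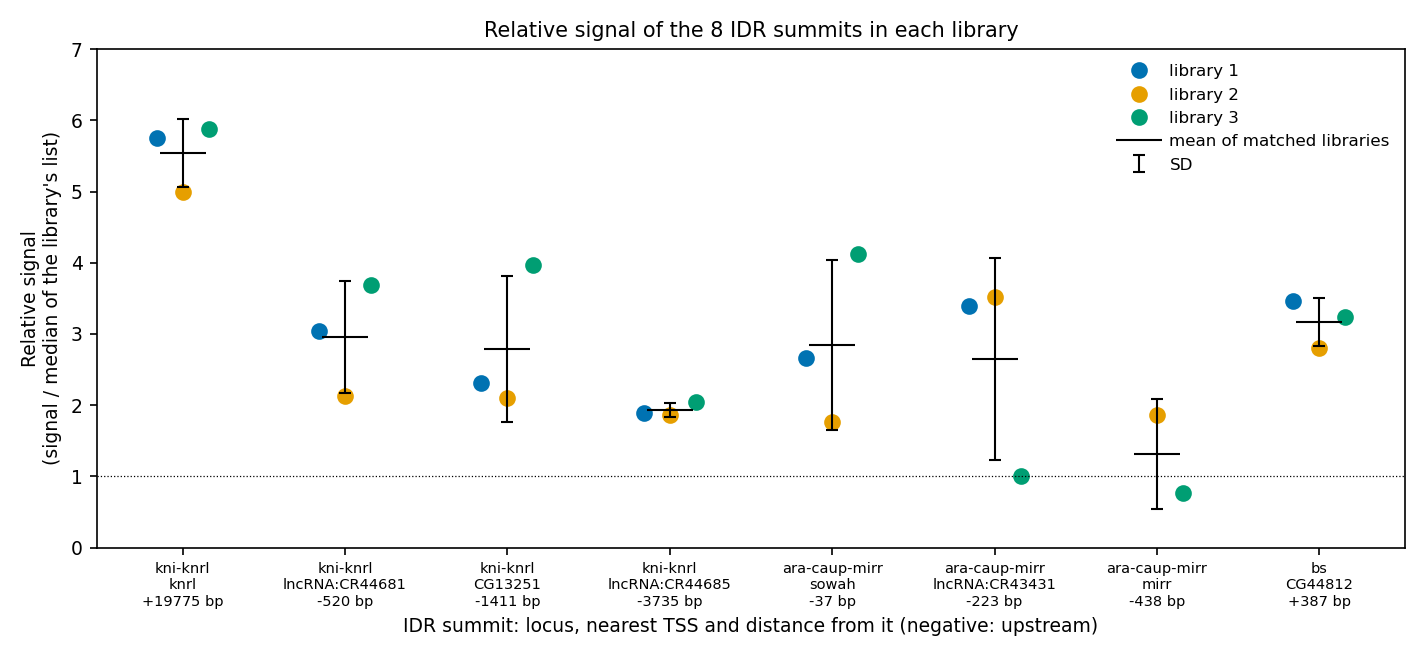
Relative signal (y axis) of the 8 IDR summits in each library (points), with the mean and SD of the matched libraries; labels give locus, gene with the nearest TSS and distance from it. The summit in knrl runs from 4.999 to 5.88, whereas the one at lncRNA:CR43431 has 3.40 and 3.52 in libraries 1 and 2 and 1.01 in library 3.

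At ara and caup, promoter summits were present in every library and in no case in the IDR set. The ara promoter, 84 bp upstream of the TSS in the pooled list (2.05, rank 5051), had 0.781 in library 1, 2.18 in library 2 and 1.90 in library 3. Library 2 counted it among its 3839 strongest (rank 3782). The caup promoter, 112 bp upstream of the TSS in the pooled list (1.58, rank 7200), had 0.962, 1.19 and 1.34 in libraries 1 to 3. No library had a strong peak at caup, and its nearest IDR summit was 37052 bp away. Inside mirr, library 3 listed a strong summit 7835 bp downstream of the TSS (2.82, rank 3096), which the pooled list had at 1.90, library 2 at 1.14 and library 1 not at all.

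**Figure D3:**
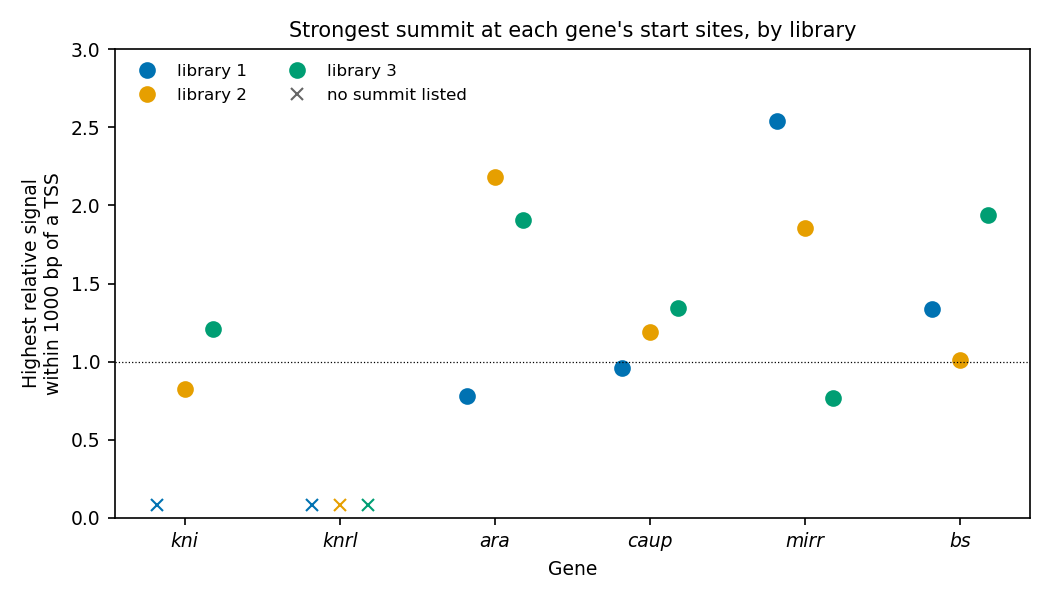
Highest relative signal (y axis) of any summit within 1000 bp of a TSS of each member gene (x axis), by library (points); crosses mark libraries with no summit listed there and the dotted line is the list median. The highest values are 2.54 at mirr in library 1 and 2.18 at ara in library 2, and knrl has no summit in any library.

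The bs locus, 53613 bp of 2R from 24332861 to 24386473, holds bs (FBgn0004101, 24342861 to 24376473, plus strand). Its IDR summit, in a peak from 24350830 to 24351173, lay 7300 bp downstream of the nearer bs TSS. It was in an intron of bs, and also in a coding exon of CG44812, 387 bp downstream of the TSS of that gene. Its relative signal was 3.46 in library 1, 2.81 in library 2 and 3.23 in library 3 (mean 3.17 ± 0.332, SD, n = 3), and all 3 libraries had it among their 3839 strongest. At the bs start sites, the strongest summits had 1.34, 1.01 and 1.94 in libraries 1 to 3, and none was in the IDR set. A second intronic position lay 19891 bp downstream of the nearer bs TSS, also within the antisense gene asRNA:bsAS. It was the strongest summit of all 3 loci outside the IDR set (2.21, rank 4566). It had 2.25 in library 1, 1.02 in library 2 and 2.43 in library 3, and libraries 1 and 3 counted it among their strongest.

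Of the 8 IDR summits, 7 were matched within 100 bp in all 3 libraries, the exception being mirr, where 82.9% of all IDR peaks were. The median pooled relative signal of the 8 was 3.55 (range 2.54 to 6.81), beside a median of 4.06 for all IDR peaks (range 2.49 to 71.9), and only the summit in knrl exceeded that median. Among the 3839 strongest peaks of a library, library 1 had 6 of the 8, library 2 had 3 and library 3 had 5, beside 79.8%, 66.2% and 79.5% of all IDR peaks. The summits in knrl and bs were among the strongest in all 3 libraries, 2 of 8, beside 48% of all IDR peaks. Counted as IDR summits that were among the strongest of both remaining libraries, the number was 2 without library 1, 5 without library 2 and 3 without library 3. Under the same rule, 52.7%, 66.1% and 56.4% of all IDR peaks were left, and mirr kept its summit in none of these cases. The mean log2 relative signal was 1.60 over the 7 summits matched in library 1, and 1.30 and 1.35 over all 8 in libraries 2 and 3 (mean 1.42 ± 0.16, SD, n = 3). Over the 7 summits matched in every library, which leaves out mirr, it was 1.60, 1.36 and 1.60 in libraries 1 to 3 (mean 1.52 ± 0.14, SD, n = 3), an average chosen after the data were seen.

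Most of the 111 pooled summits were weak, with a median relative signal of 0.958 against 1 over the whole list. The 3 libraries shared 20 of them (18.0%), beside 19.8% of all pooled summits, and 8 were IDR peaks (7.21%), beside 12.8% of all pooled summits. Library 3 matched 63.1% of the locus summits, library 2 matched 49.5% and library 1 matched 44.1%, where each matched between 51.9% and 55.5% of all pooled summits. The libraries together listed 302 summits in the loci, of which 128 had no pooled summit within 100 bp, beside 46.7% of all library summits. Among their 3839 strongest peaks were 19 of the 302, beside 12.8% of all library summits. Of the 19, 5 were not in the IDR set, beside 24.8% of all such strong summits. These 5 were at the promoters of mirr (library 1) and ara (library 2), in mirr (library 3) and at the second intronic position of bs (libraries 1 and 3).

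Pooled summits were denser in the loci than over all arms, and IDR summits were not. The member loci held 34.5 pooled summits per 100 kb, against 22.4 over all arms, and 2.49 IDR summits per 100 kb, against 2.87. By locus, IDR summits per 100 kb were 3.38 at kni-knrl and 2.01 at ara-caup-mirr, against 3.03 over 3L. At bs the value was 1.87, against 2.78 over 2R. With the whole lists, the loci had 28.0, 28.6 and 37.3 summits per 100 kb in libraries 1 to 3, against 23.6, 24.0 and 21.96 on the same arms outside them, a mean log2 ratio of 0.42 ± 0.30 (SD, n = 3, above 0 in 3 of 3 libraries). With the 3839 strongest peaks of each library, the loci had 2.49, 1.24 and 2.18 per 100 kb, against 2.88, 3.03 and 2.80 outside. The mean log2 ratio was then −0.62 ± 0.58 (SD, n = 3, below 0 in 3 of 3 libraries). In both cases the exact sign-flip permutation test over 3 libraries gave a two-sided p of 0.25, the smallest it can give, so neither ratio could pass 0.05. Without library 2, which had 4 strong summits in the loci, the ratio of strong summits was −0.28.

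The density of summits in the iroquois complex exceeded that of its arm in each of the 3 whole lists. It was 1.54, 1.34 and 1.86 times that of 3L outside it in libraries 1 to 3. The kni-knrl locus had 0.800, 1.11 and 1.55 times that density, so its direction depended on the library. The bs locus had 0.894, 0.871 and 1.09 times the density of 2R outside it. Of the pooled summits at kni-knrl, 11.4% were IDR peaks, compared with 4.84% at ara-caup-mirr and 7.14% at bs.

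**Figure D4:**
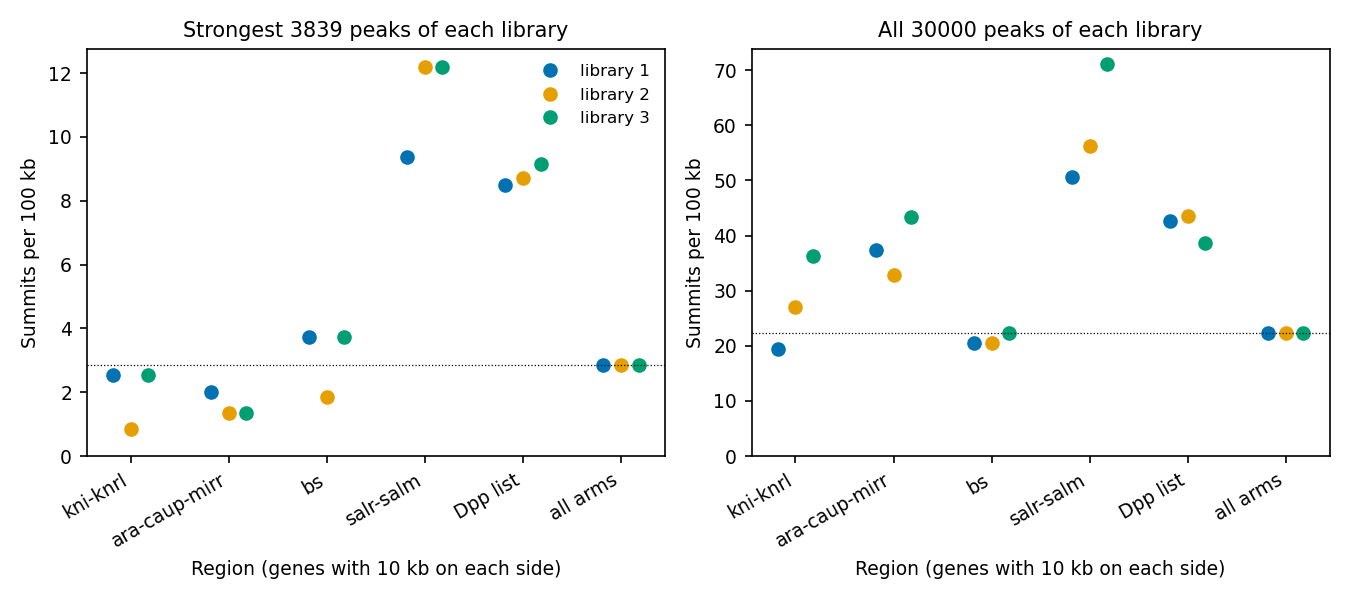
Summits per 100 kb (y axes) in each locus, in the salr-salm span, in the Dpp gene list and over all arms, by library (points), for the strongest 3839 peaks (left) and for all 30000 (right); the dotted line is the value over all arms. With all peaks the iroquois complex lies above the line in every library, and with the strongest peaks it lies below it.

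The members were set beside spalt and Dpp pathway loci, each with 10 kb on each side. These were chosen, like the vein genes described after them, with earlier results of these data known. The salr-salm span was cut like the member clusters. Each Dpp gene was cut on its own, without the sequence between neighbours that the clusters take in. The densities of members and Dpp genes therefore come from unlike regions. The salr-salm span with 10 kb on each side held 9 IDR summits (8.43 per 100 kb), and 10 Dpp pathway genes (dpp, tkv, sax, put, Mad, Med, shn, brk, bi and gbb) held 40 (8.93 per 100 kb). For the 3839 strongest peaks of a library, the member loci had a log2 density relative to salr-salm of −1.91, −3.29 and −2.48 in libraries 1 to 3, a mean of −2.56 ± 0.69 (SD, n = 3). Relative to the Dpp genes the values were −1.77, −2.81 and −2.07, a mean of −2.22 ± 0.53 (SD, n = 3). The difference was in the same direction in 3 of 3 libraries, with an exact sign-flip permutation p of 0.25 in each case, the smallest possible. The line is transgenic for salr, and whether the transgene adds a copy of sequence from the salr-salm span is not stated in the labels.

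Among 40 other genes of vein and wing patterning, 13 (32.5%) had a promoter IDR summit, beside 13.5% of all genes. The list holds salr, salm and several Dpp genes. By pooled relative signal, the strongest were salr (15.0), ds, an atypical cadherin gene (14.5), px (11.6), fng, a glycosyltransferase gene of the Notch pathway (9.99), brk, a repressor gene of the Dpp pathway (8.32) and salm (8.28). The other 7 were pnt, sty, aos, Mad, emc, ab and bi. At ds the libraries had 13.8, 9.75 and 11.9, and at brk they had 6.60, 2.06 and 11.7, so brk varied more between libraries than ds did. The mirr promoter, with 2.54 in the pooled list, was below all 13, of which bi was the lowest with 2.56.

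The IDR summits fell into different sequence surroundings in the 3 loci. The 101 bp centred on a summit had a GC content of 25.7% to 34.7% at the 4 summits of kni-knrl, below the 41.8% of the whole locus. At the 3 summits of ara-caup-mirr it was 50.5% to 55.4%, above the 42.5% of that locus. The bs summit had 40.6%, in a locus of 45.8%. Over all pooled summits the median was 42.6%, 48.5% and 49.0% in the same order of loci, with a range of 16.8% to 68.3% at ara-caup-mirr. All 3 IDR summits of ara-caup-mirr lay within 1000 bp of a TSS, unlike most of those of kni-knrl. Whether GC content goes with that position was not tested. All IDR windows had a median of 34.7%, and 385 of the 3839 reached 50%. The sequences printed above show the contrast, with runs of A and T in the knrl intron and a GC-rich stretch near lncRNA:CR43431.

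**Figure D5:**
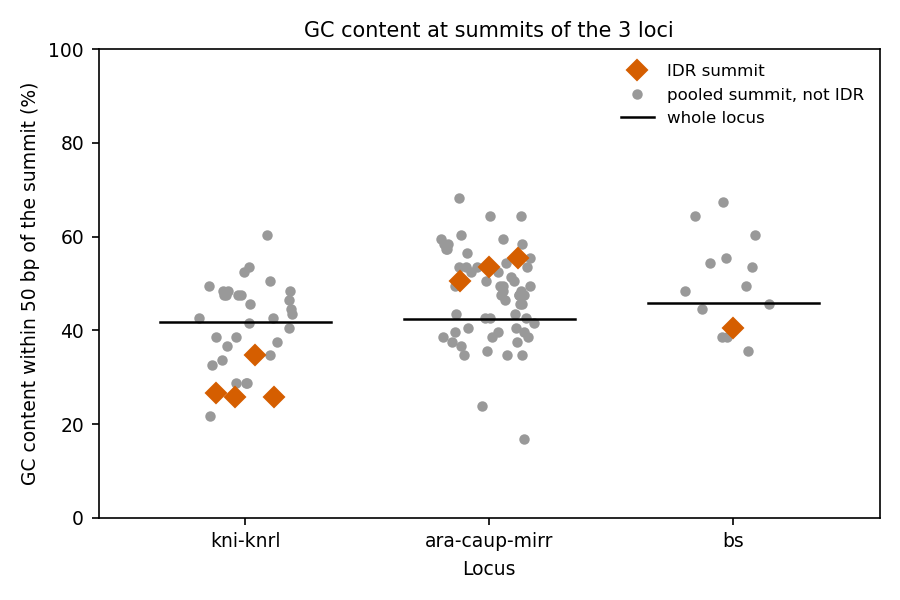
GC content within 50 bp of each pooled summit (y axis, %) in the 3 loci, with IDR summits as orange diamonds and the GC content of the whole locus as a line; horizontal scatter within a locus has no meaning. The IDR summits of kni-knrl lie below the line and those of ara-caup-mirr above it.

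The windows were searched on both strands for 6 words: AATATT, bound by the spalt family protein SALL4 in mammals, TTATGAAAT, an AT-rich candidate word, TATCGATA, the DREF element, GAGAGA, the GAGA factor word, CACACA, and GGAATG, the word of the TEAD family, to which the wing selector Scalloped belongs. None of the 8 IDR windows held any of them. Of all IDR windows, 14.8% held AATATT, 0.521% TTATGAAAT, 1.12% TATCGATA, 5.63% GAGAGA, 7.55% CACACA and 3.70% GGAATG. Of the 111 pooled windows of the loci, 6 held AATATT, 1 TTATGAAAT, 0 TATCGATA, 9 GAGAGA, 7 CACACA and 6 GGAATG. The shares of all pooled windows were 8.15%, 0.310%, 0.483%, 5.38%, 12.2% and 5.26% in that order of words. Outside the IDR set, TTATGAAAT was found as its reverse complement downstream of kni, and GGAATG in the ara promoter, as the capitals above show.

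By annotation, 5 of the 8 IDR summits lay within 1000 bp of a TSS, beside 49.6% of all IDR summits, and 4 of these 5 were nearest to a gene outside the list (sowah, CG44812, lncRNA:CR44681 and lncRNA:CR43431). Of the 111 pooled summits of the loci, 20.7% were within 1000 bp of a TSS, beside 31.8% of all pooled summits. Intergenic summits made up 39.6%, beside 22.5%, and intronic ones 33.3%, beside 40.2%. At kni-knrl 57.1% were intergenic, at ara-caup-mirr 38.7% were intronic and at bs 42.9% were within 1000 bp of a TSS. The loci were cut to take in the sequence between neighbouring members. The share of their bases that is intergenic was not computed, so these shares are not read as a trait of the genes.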

How the data were processed

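Peak lists of 3 ChIP-seq libraries, of their pooled alignments and of IDR-thresholded peaks were used, on dm6 per the deposited notes. Which aligner and caller they used is not given in the sources used here. Each peak has a signal, the value the authors deposited with it, with no stated scale, which was used only within a list, as relative signal and rank. The deposited −log10 q-value was copied and not tested. The summit offset deposited with each peak gave the summit. Genes and TSSs came from Ensembl BDGP6.54, release 115, without transposable element entries (18164 genes, with Dl listed as Delta). Its assembly is that of RefSeq Release 6, from which sequence was read, and coordinates are 1-based.

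A locus is the span of neighbouring members with 10 kb on each side. Summits within 100 bp were matched. A library was the replicate, and densities were compared by an exact sign-flip permutation test. The labels call the libraries biological replicates without describing separate collections of animals, so such a p covers only the spread between these libraries. Strongest peaks are the 3839 highest signals of a library, as many as there are IDR peaks. Named genes are the 6 members, the gene with the TSS nearest to each IDR summit of the loci, the 6 genes of the vein list with the strongest promoter summit, the salr-salm span and 10 Dpp genes. A name beyond these, such as asRNA:bsAS or another gene of a count, was chosen after its values were seen. The members, the lists and the words were chosen with earlier results of these data known. Summit matching was tested on a simulated list, and the sign-flip test on made-up values with known answers. The other steps were not tested in this way. Python 3.11.15, numpy 2.4.6, pandas 2.3.3 and matplotlib 3.10.9 were used. Alternatives varied the flank, the TSS distance, the matching distance, the peaks used and the libraries.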

Additional observations from a re-analysis of the deposited data

How the results depend on the processing

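Of 45 alternatives over 7 results, 30 kept the direction or stayed within 1.5 times the reported count, or within the SD between libraries for the mean signal. The 8 IDR summits became 13 when the loci ran out to the nearest other protein-coding gene and 1 in the stronger part of the IDR list. Without a replicate, IDR could not be recomputed, and IDR summits among the strongest of both remaining libraries numbered 2 to 5, while 52.7% to 66.1% of all IDR peaks were left. The 1 member with a promoter IDR summit became 3 for the gene body with 2000 bp, where 23.1% of all genes had a summit. In the stronger part of the list the count was 0, when 7.71% of all genes had a promoter summit. With any library left out it was also 0, when 7.36% to 9.20% of all genes had such a summit. The 7 summits matched in all 3 libraries became 2 when only the strongest peaks counted. The log2 density ratio of −0.62 reversed to 0.42 with all peaks, as weak summits then enter, and ran from −0.82 to −0.28 with a library left out. The mean log2 relative signal, as a rank percentile, was 85.6, which is another scale. Restricted, after the data were seen, to summits matched in every library, it was 1.52. The 13 genes of the vein list became 7 within 500 bp, where 10.5% of all genes had an IDR summit. For the gene body with 2000 bp they became 29, where 23.1% of all genes had one. The 1000 strongest peaks gave no ratio, since library 3 then had 0 summits in the loci. No paired analysis was possible because there is no other group to pair with. With sequencing depth unknown, a summit missing from a library list cannot be told apart from a weak summit below the 30000 peaks listed.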
